A study of Danio rerio with 18 samples.

Results

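Cocktail 1 is a mixture of 25 guide RNAs (gRNAs) given to zebrafish embryos together with RfxCas13d, and it was examined as 2 libraries of 18 in all. It was set against the 14 libraries of Cocktails 2 to 8, which are other mixtures of 25 gRNAs, and the 2 libraries of embryos labelled RfxCas13d control are given beside the genes described. All 18 libraries held total RNA of whole embryos at 4 h post-fertilisation, with 2 replicates in each of 9 groups. The stated amount for the cocktails was 10 pg per embryo, and none is recorded here for the control. The study asked how well models made outside the embryo predict the loss of mRNA inside it, using 200 gRNAs over 8 cocktails. No strain or age beyond the stage is labelled, and the form in which RfxCas13d was given is not given in the sources used here. Nor do these sources give the genes matched by the gRNAs, the content of the control injection or the meaning of the stated amount (per gRNA or per cocktail), so no gene is called a target.

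RfxCas13d is an RNA-guided nuclease that cuts RNA instead of DNA. A gRNA pairs with a stretch of the transcript, and the bound nuclease then cleaves it, which lowers the level of that mRNA. At this stage the zebrafish embryo holds both mRNAs loaded into the egg by the mother and the first transcripts of its own genome, and maternal mRNAs are being cleared.

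Levels are given in CPM, read counts scaled to a common library size with TMM factors (edgeR's trimmed mean of M values). Gene counts were 3366526 in Cocktail 1 replicate 1 and 3284845 in replicate 2, between 2544027 and 4019311 in Cocktails 2 to 8, and 4864939 and 3684672 in the control. The tests covered 14514 of 32520 genes. Nothing in the labels ties a replicate to a clutch or an injection of its own. The p-values therefore describe the spread of these samples, possibly only a technical one.

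The Cocktail 1 libraries differed widely from each other, as did those of Cocktail 3, and replicate 1 of Cocktail 1 lay farthest from the other cocktails on the first principal component. On the first principal component, with 30.9% of the variance, it scored -106.5, against -18.01 for Cocktail 1 replicate 2. The 14 other cocktail libraries lay between -42.3 and 27.1, and the controls scored 87.2 and 89.0. Across genes, which are not independent, log2 CPM of the Cocktail 1 libraries had a correlation of 0.877, against 0.926 to 0.962 for the replicate pairs of Cocktails 2 to 8. The median absolute difference between replicates was 0.537 log2 units in Cocktail 1, below the 0.565 of Cocktail 3 and above the 0.267 to 0.381 of the other 6 cocktails. Between them, 1644 genes were lower by 2-fold or more in replicate 1 and 1762 were higher. At 8-fold or more the split was uneven, with 354 lower and 19 higher. Of the genes tested, 618 were at 0 counts in replicate 1 (4.26%) and 267 in replicate 2 (1.84%). The other cocktail libraries had 149 to 565 genes at 0, and the control libraries had at most 307. Replicate 1 was below all 17 other libraries in 1697 genes and above all in 1766, and replicate 2 in 465 and 624. Another library with such counts was Cocktail 3 replicate 2, at 1650 and 1820, and the controls had 1541 and 1749 below and 1552 and 1553 above.

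Replicate 1 had no read at all of 109 genes that had at least 10 counts in each of the other 17 libraries. In those 17 libraries, the same search found between 0 and 2 genes each. With at least 100 counts elsewhere, 27 genes were at 0 in replicate 1 and none in any other library. These genes were picked by their values and are given as a description.

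The genes named here from among the 109 had some of the highest levels in replicate 2. The keratin gene krt18a.1 had 0 counts in replicate 1 and 2482 counts, or 794 CPM, in replicate 2, against 402 to 1314 CPM in the 14 other cocktail libraries and 2469 and 2225 CPM in the control. With a count of 0 taken as 3 counts (0.811 CPM), its level in replicate 1 was at least 979-fold lower than in replicate 2. For cldne, a claudin of tight junctions, the levels were 0 and 261 CPM in Cocktail 1, between 167 and 501 CPM in the other cocktails and 692 and 596 CPM in the control.

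The keratin gene krt4 had 0 and 289 CPM in Cocktail 1, 138 to 680 CPM in the other cocktails and 1898 and 1891 CPM in the control. For tbx16, a T-box factor of the mesoderm, the values were 0 and 236 CPM, 135 to 593 CPM, and 1256 and 1248 CPM in the same order. FO834825.3, not described further in the sources used here, is not one of the 109, since it had 6 counts in replicate 1. Its levels were 1.62 and 904 CPM in Cocktail 1 and 555 to 1169 CPM in the other cocktails, against 710 and 598 CPM in the control. Each of these genes was thus nearly or wholly without reads in one Cocktail 1 library and inside the range of the other cocktails in its partner. This was the case for 102 of the 109 genes, while 5 were below that range in replicate 2 and 2 above it. Not one of the 109 was called lower with both libraries. The search itself asked for 0 counts in replicate 1 and at least 10 in replicate 2. These counts therefore follow in part from the search and are no separate result.

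The same number of genes was taken from the other direction. By the difference between the 2 libraries, the genes highest in replicate 1 were sc:d217, at 14.6 and 0 CPM in Cocktail 1 and 4.50 to 43.0 CPM in the other cocktails, against 5.76 and 7.23 CPM in the control, and then pstpip1b, si:dkey-182i3.10 and dclk2a. In sc:d217 replicate 1 lay inside the range of the other cocktails, and replicate 2 lay below it. The levels of pstpip1b, a gene of an actin-associated adaptor, were 7.30 and 0 CPM, against 0 to 6.71 CPM in the other cocktails and 2.99 and 0 CPM in the control.

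**Figure D1:**
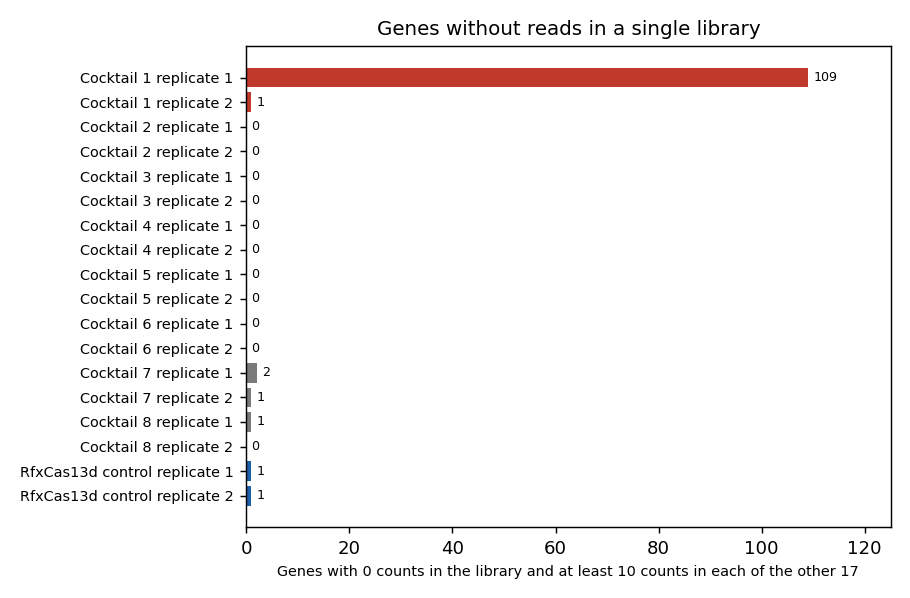
Each bar is 1 library and its length is the number of genes with 0 counts in that library and at least 10 counts in each of the other 17 (Cocktail 1 in red, Cocktails 2 to 8 in grey, RfxCas13d control in blue). Cocktail 1 replicate 1 has 109 such genes, and no other library has more than 2.

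Because of this gap, results are given with both Cocktail 1 libraries and with each of them alone. In the fits with one library left out, the lone library is taken to vary like the other groups. With both libraries, 35 genes were lower in Cocktail 1 than in the mean of the 7 other cocktails (0.241% of genes tested) and 24 were higher (0.165%). A call required a Benjamini-Hochberg adjusted p under 0.05 in edgeR's quasi-likelihood test and a change of at least 2-fold. Cocktails 2 to 8 had between 5 and 28 lower and between 3 and 52 higher genes in the same comparison against their own 7 others, which share libraries with each other.

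Without replicate 1, 10 genes were lower (0.0689%) and 8 higher (0.0551%), of which 8 and 4 were also called with both libraries. Without replicate 2, the counts were 686 lower (4.73%) and 456 higher (3.14%). The 35 genes had 34 members called lower in replicate 1 alone and 8 in replicate 2 alone, and 7 in each. The count of lower genes also changed when any single library of the other cocktails or the control was left out. Among those libraries, it rose most without Cocktail 3 replicate 2 and fell most without Cocktail 6 replicate 2. The count of higher genes changed in each of these fits too, rising most without Cocktail 3 replicate 2 and falling most without Cocktail 2 replicate 2.

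In 16 of the 35 lower genes and 5 of the 24 higher ones, both Cocktail 1 libraries lay beyond all 16 other libraries. Cocktails 2 to 8, each against its own 16 others, had between 3 and 16 such lower genes and between 0 and 13 such higher ones. Over all genes tested, called or not, both Cocktail 1 libraries lay below all 16 in 101 (0.696%) and above all 16 in 114 (0.785%). Cocktails 2 to 8 had between 67 and 132 such genes below. Above, Cocktail 8 had the fewest at 88, and Cocktails 3, 5 and 7 had more than Cocktail 1. By these counts Cocktail 1 did not stand out from the other cocktails. Against the 14 other cocktail libraries the counts of Cocktail 1 were 115 (0.792%) and 126 (0.868%). Against the control, 1141 genes were lower in Cocktail 1 (7.86%) and 1829 higher (12.6%). Without replicate 1 these counts were 791 and 1013, and without control replicate 2, 760 genes were lower. All 35 genes lower than in the other cocktails were also lower than in the control. In 21 of the 35, the other cocktails were themselves called lower than the control. Of the 24 higher genes, 16 were also higher than in the control.

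Among the lower genes, 7 were called lower in each Cocktail 1 library on its own. They are papolg, ppp4r2b, ppp4r2a, ctdspl2a, drap1, mier1a and alg3; papolg, ppp4r2a, mier1a and alg3 fell outside the naming rule and were chosen after their values were seen. The products of these genes act in mRNA tailing, protein dephosphorylation, control of transcription and glycosylation. The 2 Cocktail 1 libraries lay nearer to each other here than in the genes described above, with replicate 1 up to about 2-fold the higher of the pair in papolg and ppp4r2b.

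The gene ppp4r2b encodes a regulatory subunit of protein phosphatase 4. It had 95.1 and 51.2 CPM in Cocktail 1, between 350.2 and 576 CPM (median 479) in the other cocktails, and 374 and 379 CPM in the control. Both Cocktail 1 libraries were far below every other library, and the other cocktails overlapped the control. The log2 fold change against the other cocktails was -2.63 ± 0.20 (SE, edgeR adjusted p = 1.42e-07), at -2.25 in replicate 1 alone and -3.15 in replicate 2 alone. Cocktail 1 was lower than Cocktail 2 (359 and 353 CPM) by 2.28 ± 0.23 log2 units (adjusted p = 8.86e-06) and lower than Cocktail 3 (394 and 350.2 CPM) by 2.34 ± 0.23 (adjusted p = 3.67e-06).

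Its paralogue ppp4r2a had 135 and 124 CPM in Cocktail 1. Cocktail 3 was lower still at 86.8 and 65.0 CPM, Cocktail 2 had 276 and 288 CPM, and Cocktails 4 to 8 lay between 338 and 513 CPM, against 421 and 455 CPM in the control. The log2 fold change of Cocktail 1 over the 7 other cocktails was -1.28 ± 0.17 (edgeR adjusted p = 0.000442). In Cocktail 3 only ppp4r2a of the pair was low, with ppp4r2b at the levels given above. The difference of Cocktail 1 from Cocktail 3 was 0.77 ± 0.21 in ppp4r2a (adjusted p = 0.715), and that from Cocktail 2 was -1.12 ± 0.21 (adjusted p = 0.0244).

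Other subunits of the same phosphatase, looked up after these values were seen, were not called. Levels of ppp4ca were 334 and 371 CPM in Cocktail 1, 265 to 400 CPM in the other cocktails and 273 and 250.3 CPM in the control, and those of ppp4cb were 501 and 545 CPM, 467 to 645 CPM, and 549 and 507 CPM in the same order. The catalytic subunit genes ppp4ca and ppp4cb had log2 fold changes of 0.14 ± 0.14 and -0.02 ± 0.13 (edgeR adjusted p = 0.735 and 0.977). The regulatory subunit genes ppp4r1 (0.10 ± 0.26, adjusted p = 0.913) and ppp4r3b (-0.06 ± 0.21, adjusted p = 0.94) did not pass either. Cocktail 1 had 36.5 and 43.5 CPM of ppp4r1, against 18.6 to 61.7 CPM in the other cocktails and 59.4 and 61.7 CPM in the control. It had 61.6 and 68.1 CPM of ppp4r3b, against 48.4 to 85.2 CPM in the other cocktails and 98.6 and 120.2 CPM in the control.

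The level of papolg, which encodes a nuclear poly(A) polymerase, was 43.5 and 21.1 CPM in Cocktail 1. It was 137 and 104 CPM in Cocktail 2, 61.5 and 43.0 CPM in Cocktail 3, and 267 to 320.2 CPM in Cocktails 4 to 8, against 369 and 388 CPM in the control. Cocktails 1, 2 and 3 were all below Cocktails 4 to 8, and Cocktail 1 replicate 1 overlapped Cocktail 3. The log2 fold change against the 7 other cocktails was -2.66 ± 0.23 (edgeR adjusted p = 4.91e-07). Cocktail 1 held 10.7% of the mean of Cocktails 4 to 8, Cocktail 3 held 17.3% and Cocktail 2 held 39.9%. The difference from Cocktail 2 passed (-1.89 ± 0.26, adjusted p = 0.000762), and that from Cocktail 3 did not (-0.69 ± 0.26, adjusted p = 1). The related polymerase gene papola, also looked up afterwards, was at 10.8 and 8.63 CPM in Cocktail 1 and 7.11 to 25.7 CPM in the other cocktails, against 24.9 and 31.9 CPM in the control, and it was not called (adjusted p = 0.575).

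Levels of ctdspl2a, a gene of the small phosphatases related to those of the RNA polymerase II tail, were 7.84 and 6.395 CPM in Cocktail 1. They were 28.1 and 25.5 CPM in Cocktail 2, 14.9 and 25.3 CPM in Cocktail 3 and 45.0 to 134 CPM in Cocktails 4 to 8, against 66.8 and 48.2 CPM in the control. Cocktail 1 was lowest, with Cocktails 2 and 3 between it and the rest. The log2 fold change was -2.92 ± 0.41 (edgeR adjusted p = 0.000653), while neither Cocktail 2 (-1.90 ± 0.46, adjusted p = 0.107) nor Cocktail 3 (-1.48 ± 0.47, adjusted p = 1) differed past the threshold. The paralogue ctdspl2b was not called (199 and 242 CPM in Cocktail 1, 151 to 307 CPM in the other cocktails, 251 and 243 CPM in the control, adjusted p = 0.542).

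The gene drap1 encodes a subunit of the NC2 repressor of transcription by RNA polymerase II. It had 109.7 and 112 CPM in Cocktail 1, 188 and 238 CPM in Cocktail 2, 314 and 334 CPM in Cocktail 3 and 431 to 547 CPM in Cocktails 4 to 8, against 699 and 704 CPM in the control. The groups followed each other without overlap, Cocktail 1 lowest and the control highest. Against the mean of the 7 other cocktails, the log2 fold change was -1.86 ± 0.15 (edgeR adjusted p = 1.88e-07). Cocktail 1 was lower than Cocktail 2 by 0.95 ± 0.17 log2 units (adjusted p = 0.0203), which is under the 2-fold minimum, and lower than Cocktail 3 by 1.55 ± 0.18 (adjusted p = 4.12e-05).

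The last 2 of the 7 genes paired Cocktail 1 with one other cocktail. Levels of mier1a, a gene of a nuclear corepressor, were 50.3 and 52.4 CPM in Cocktail 1 and 30.4 and 39.7 CPM in Cocktail 3. Cocktail 2, at 163 and 162 CPM, lay with Cocktails 4 to 8 (127 to 180.3 CPM) and was above the control (133 and 120.2 CPM). Its log2 fold change was -1.19 ± 0.17 (edgeR adjusted p = 0.000972). Cocktail 1 was lower than Cocktail 2 by 1.66 ± 0.21 (adjusted p = 0.000336), and its difference from Cocktail 3 was 0.55 ± 0.22 (adjusted p = 1).

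For alg3, a mannosyltransferase gene of N-glycan assembly, Cocktail 1 had 78.9 and 73.9 CPM and Cocktail 2 had 57.5 and 65.0 CPM. Here Cocktail 3, at 159 and 177 CPM, lay with Cocktails 4 to 8 (144 to 238 CPM), which overlapped the control (213 and 193 CPM). The log2 fold change was -1.09 ± 0.17 (edgeR adjusted p = 0.00136). Cocktail 1 was lower than Cocktail 3 by 1.13 ± 0.20 (adjusted p = 0.0218), and its difference from Cocktail 2 was 0.32 ± 0.20 (adjusted p = 0.565).

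**Figure D2:**
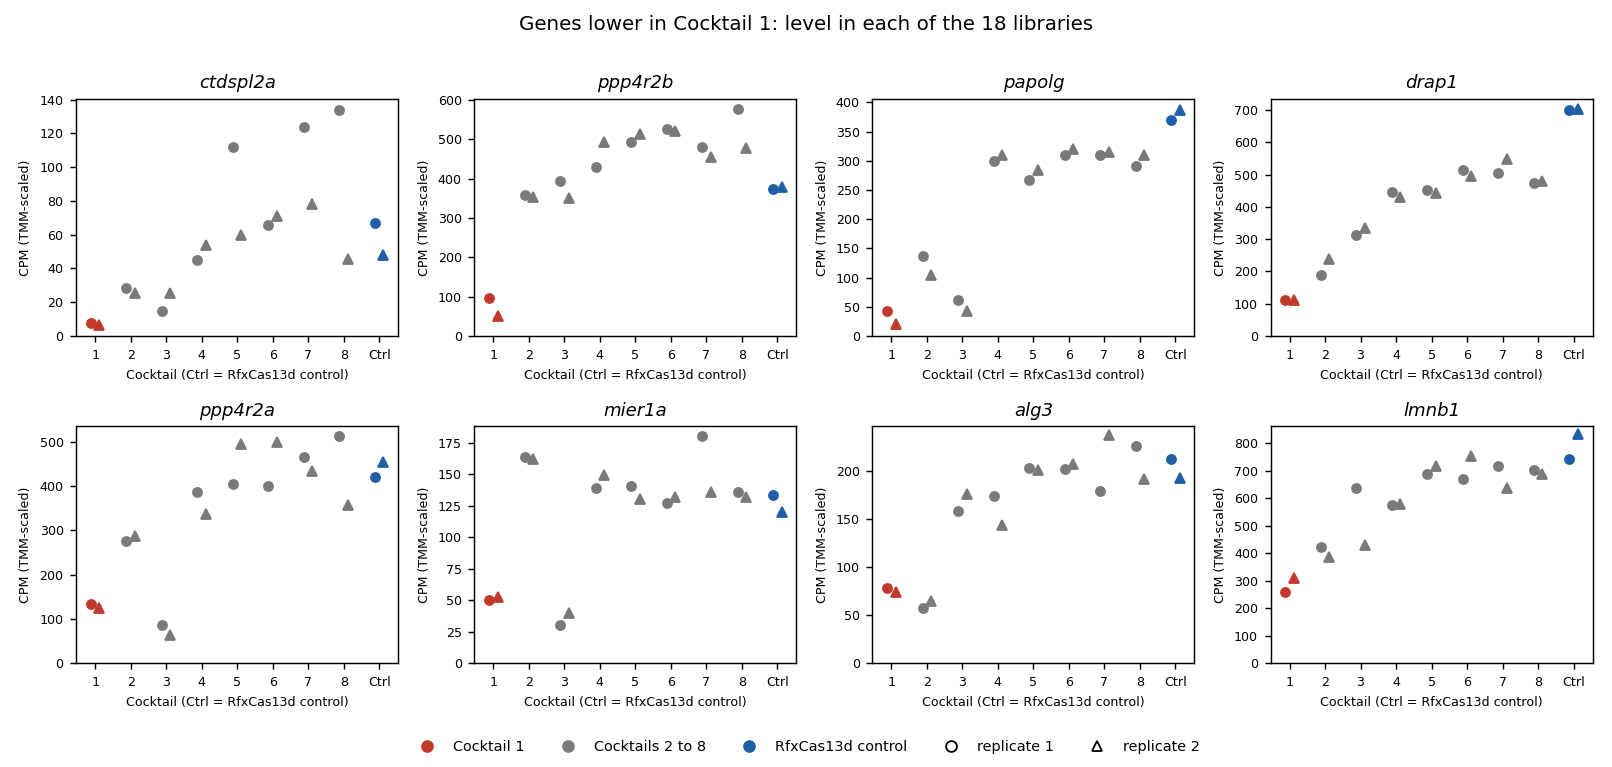
Each panel shows the level of 1 gene in CPM (linear axis from 0) in all 18 libraries by cocktail, with circles for replicate 1 and triangles for replicate 2 (Cocktail 1 in red, Cocktails 2 to 8 in grey, control in blue). Both Cocktail 1 libraries are below all others in ctdspl2a, ppp4r2b, drap1 and lmnb1, and Cocktail 2 or 3 overlaps or is below Cocktail 1 in papolg, ppp4r2a, mier1a and alg3.

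Another pair of genes stood near these. The level of lmnb1, which encodes lamin B1 of the nuclear envelope, was 259 and 308 CPM in Cocktail 1, 388 to 754 CPM (median 654) in the other cocktails, and 744 and 833 CPM in the control. It was below all 16 other libraries, with a log2 fold change of -1.09 ± 0.16 (edgeR adjusted p = 0.000833), and in replicate 2 alone it missed the 2-fold minimum (-0.97). The differences from Cocktail 2 (-0.52 ± 0.19, edgeR adjusted p = 0.28) and Cocktail 3 (-0.92 ± 0.19, adjusted p = 0.0897) did not pass. For aebp2, a cofactor of Polycomb repressive complex 2 that was named after its values were seen, Cocktail 1 had 52.4 and 42.5 CPM. The other cocktails lay between 79.7 and 119 CPM (median 99.3) and the control had 138 and 146 CPM. Its log2 fold change was -1.09 ± 0.18 (edgeR adjusted p = 0.00378), and in replicate 1 alone it missed the 2-fold minimum (-0.95).

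Cocktails 2 and 3 are part of the mean that Cocktail 1 was set against, and they were themselves low in several of these genes. With Cocktails 4 to 8 alone as the comparison, a choice made after seeing the data, 75 genes were lower in Cocktail 1 (0.517%) and 56 higher (0.386%), and all 35 genes were among the 75. In that comparison the log2 fold changes were -3.21 ± 0.24 for papolg, -3.41 ± 0.42 for ctdspl2a, -2.11 ± 0.16 for drap1 and -1.72 ± 0.18 for ppp4r2a. In direct comparison, 17 genes were lower in Cocktail 1 than in Cocktail 2 (0.117%) and 3 lower than in Cocktail 3 (0.0207%). Higher genes numbered 4 against Cocktail 2 (0.0276%) and 6 against Cocktail 3 (0.0413%). With the 14 libraries taken as 1 group, so that differences among the other cocktails counted as spread, ppp4r2b, drap1, lmnb1 and aebp2 were still called. So were morc3b, spry4 and metrn, which are described below (edgeR adjusted p = 0.04 for each). In that fit papolg and ctdspl2a (edgeR adjusted p = 0.311 for both), ppp4r2a (0.495), mier1a (0.433) and alg3 (0.41) were not.

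In the other lower genes, replicate 1 mostly had the larger decrease. Replicate 1 was below replicate 2 in 25 of the 35 genes and above it in 8. Besides the genes above, the naming rule took morc3b, stard13b, si:dkeyp-69b9.6, spry4, bcar3, metrn, ephb4a, si:ch211-195b13.1, cyp51 and zgc:112994. Each was called with both libraries and not with replicate 2 alone.

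The gene morc3b encodes a zinc finger protein of the MORC ATPases. It had 0.54 and 3.84 CPM in Cocktail 1, 9.19 to 39.7 CPM (median 20.1) in the other cocktails, and 134 and 128 CPM in the control. Both Cocktail 1 libraries lay under all other libraries, and the other cocktails lay wholly under the control. Its log2 fold change was -3.24 ± 0.49 (edgeR adjusted p = 0.00123), and with replicate 2 alone the adjusted p was 0.0686.

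For spry4, an inhibitor of receptor tyrosine kinase signalling, the levels were 1.08 and 2.24 CPM in Cocktail 1, 5.14 to 14.5 CPM in the other cocktails and 28.6 and 37.1 CPM in the control (log2 fold change -2.54 ± 0.51). For metrn, which encodes the secreted protein meteorin, they were 1.08 and 4.16 CPM, 8.79 to 22.7 CPM, and 74.2 and 58.7 CPM in the same order (-2.40 ± 0.44). For ephb4a, an ephrin receptor gene, they were 1.89 and 7.04 CPM, 8.04 to 40.7 CPM, and 44.9 and 52.1 CPM (-2.30 ± 0.48). In all 3 genes the control was highest and Cocktail 1 replicate 1 lowest.

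Both Cocktail 1 libraries were near 1 CPM for stard13b (0.811 and 0.959 CPM, against 2.57 to 15.8 CPM in the other cocktails and 37.6 and 34.9 CPM in the control). For bcar3, a gene of an adaptor in adhesion signalling, they had 1.62 and 0.64 CPM, against 2.79 to 13.98 CPM in the other cocktails and 67.7 and 55.1 CPM in the control. The levels of cyp51, a sterol demethylase gene, were 4.05 and 6.395 CPM, against 9.52 to 32.9 CPM in the other cocktails and 38.2 and 48.5 CPM in the control. In these genes too the other cocktails lay wholly between Cocktail 1 and the control. In bcar3 it was replicate 2 that was the lower of the Cocktail 1 pair. The calls of cyp51 and stard13b were kept in 10 and 15 of 27 alternatives.

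In some of these genes the control was not apart from the other cocktails. The levels of si:dkeyp-69b9.6 were 1.62 and 1.92 CPM in Cocktail 1, 6.39 to 15.9 CPM in the other cocktails and 6.91 and 11.7 CPM in the control, both inside that range. For si:ch211-195b13.1 they were 12.7 and 17.9 CPM in Cocktail 1, 22.6 to 88.2 CPM in the other cocktails and 126 and 82.8 CPM in the control, 1 of them inside. Levels of zgc:112994 were 8.11 and 28.5 CPM in Cocktail 1, 38.1 to 120.3 CPM in the other cocktails and 273 and 228 CPM in the control, which was the highest group.

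A pair of genes had no read in either Cocktail 1 library. For kcnk1a, a two-pore-domain potassium channel gene, the mean was 6.45 CPM in the other cocktails and 40.7 CPM in the control. With 3 counts over both libraries as the floor (0.439 CPM), its level in Cocktail 1 was at least 14.7-fold lower than in the other cocktails and at least 92.7-fold lower than in the control. Of the 14 other cocktail libraries, 1 was also at 0. The same floor gave at least 6.94-fold for si:ch211-209j10.6, with means of 3.05 CPM in the other cocktails and 8.65 CPM in the control. The calls were kept in 24 of 27 alternatives for kcnk1a and in 11 of 26 for si:ch211-209j10.6. Both were lost with the other cocktails as 1 group.

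**Figure D3:**
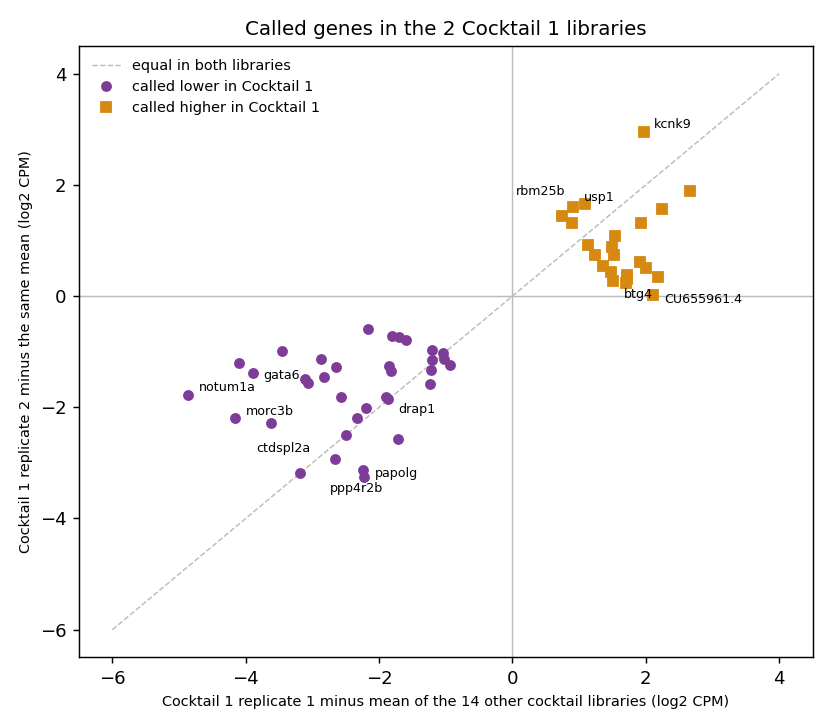
Each point is 1 of the 59 called genes, with the difference of Cocktail 1 replicate 1 from the mean of the 14 other cocktail libraries on the x axis and that of replicate 2 on the y axis (log2 CPM with a prior count of 2); the dashed line marks equal values. The genes ppp4r2b, papolg, ctdspl2a and drap1 lie near or under the dashed line, whereas notum1a, gata6 and morc3b are far lower in replicate 1, and most higher genes are higher in replicate 1.

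The 24 higher genes also fell into 2 patterns. In 19, replicate 1 was above replicate 2, and in 5 replicate 2 was above replicate 1. The genes rbm25b, usp1, cdca7b and bzw1a, named after their values were seen, are 4 of those 5, and in each of them some of the other cocktails were far below Cocktail 1.

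The level of rbm25b, which encodes a splicing regulator, was 143 and 214 CPM in Cocktail 1. It was 8.04 and 9.91 CPM in Cocktail 4, 15.4 and 11.4 CPM in Cocktail 5 and 89.3 to 185 CPM in the other 5 cocktails, against 205 and 184 CPM in the control. Cocktail 1 had a log2 fold change of 1.41 ± 0.16 over the other cocktails (edgeR adjusted p = 5.11e-05) and -0.13 ± 0.24 over the control (adjusted p = 0.732). It was the one higher gene called in each Cocktail 1 library alone. The comparison with other cocktails thus called the gene higher where 2 of those cocktails were low.

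In usp1, a deubiquitinase gene of DNA repair, and cdca7b, a chromatin factor gene of the cell cycle, some other cocktails were also low. Levels of usp1 were 211 and 345 CPM in Cocktail 1, 26.3 to 49.6 CPM in Cocktails 4 to 6 and 292 and 344 CPM in the control (log2 fold change over the control -0.19 ± 0.21, edgeR adjusted p = 0.534). For cdca7b they were 204 and 271 CPM in Cocktail 1, 10.6 and 8.36 CPM in Cocktail 4 and 196 and 219 CPM in the control (over the control 0.20 ± 0.21, adjusted p = 0.53). Over all other cocktail libraries the levels were 26.3 to 314 CPM (median 216) for usp1 and 8.36 to 275 CPM (median 196) for cdca7b. Both genes were called higher than in the other cocktails, by 1.31 ± 0.14 and 1.13 ± 0.15 log2 units. How much of each call rests on the low cocktails was not tested.

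In contrast, bzw1a, a gene of a translation regulator, was above the control. It had 424 and 690 CPM in Cocktail 1, 502 to 664 CPM in Cocktails 2 to 4, 79.9 to 261 CPM in Cocktails 5 to 8 and 166 and 150 CPM in the control. Cocktails 1 to 4 were thus high together. Its log2 fold change in Cocktail 1 was 1.13 ± 0.15 over the 7 other cocktails (edgeR adjusted p = 0.000424) and 1.82 ± 0.23 over the control (adjusted p = 1.04e-05). It did not reach 2-fold in replicate 1 alone (0.74).

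The naming rule took 6 higher genes, kcnk9, FO834850.1, dapk2b, zmp:0000000624, zfp36l2 and trub2. Levels of zfp36l2, a gene of a zinc finger protein that promotes decay of mRNAs with AU-rich elements, were 143 and 100.1 CPM in Cocktail 1, 35.4 to 90.1 CPM in the other cocktails and 31.8 and 38.9 CPM in the control. Both Cocktail 1 libraries were above the rest, with a log2 fold change of 1.00 ± 0.21 (edgeR adjusted p = 0.0278). With replicate 2 alone it was 0.72 (adjusted p = 0.434), and its call was kept in 12 of 27 alternatives.

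Levels of dapk2b, a death-associated kinase gene, were 14.6 and 8.95 CPM in Cocktail 1, against 0.621 to 8.53 CPM in the other cocktails and 1.15 and 2.11 CPM in the control. For kcnk9, another two-pore-domain potassium channel gene, they were 3.24 and 7.04 CPM, 0 to 2.48 CPM, and 1.15 and 1.21 CPM in the same order. The pseudouridine synthase gene trub2 had 48.9 and 19.5 CPM in Cocktail 1, 7.18 to 18.9 CPM in the other cocktails and 13.8 and 21.7 CPM in the control, so its replicate 2 lay below a control library. Levels of FO834850.1 were 10.3 and 5.76 CPM in Cocktail 1, 0 to 2.25 CPM in the other cocktails and 2.53 and 4.22 CPM in the control. For zmp:0000000624 they were 47.0 and 30.7 CPM, 8.08 to 28.6 CPM, and 15.0 and 11.1 CPM in the same order. The calls of trub2 and zmp:0000000624 were each kept in 7 of 27 alternatives, and those of kcnk9 and FO834850.1 in 10 and 14 of 26. None of the 6 was called with replicate 2 alone, where their adjusted p ran from 0.116 to 0.734.

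**Figure D4:**
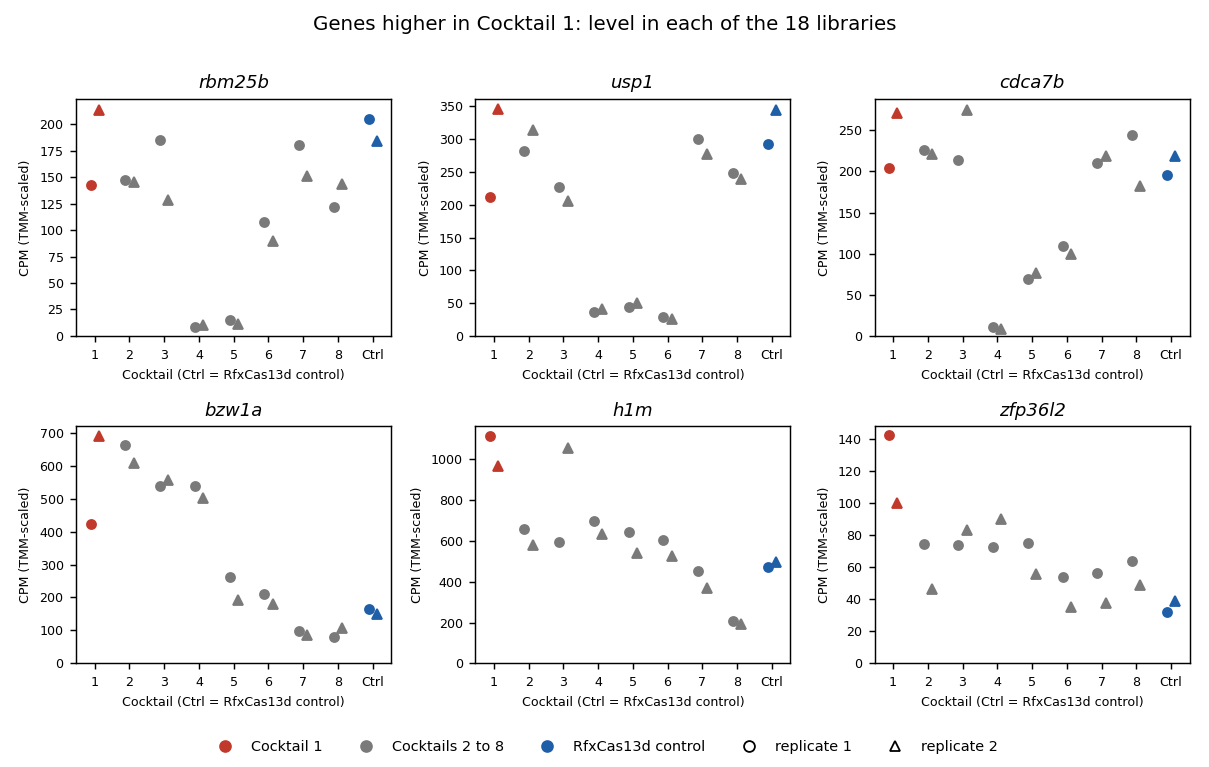
Each panel shows the level of 1 gene in CPM (linear axis from 0) in all 18 libraries by cocktail, with circles for replicate 1 and triangles for replicate 2 (Cocktail 1 in red, Cocktails 2 to 8 in grey, control in blue). In rbm25b, usp1 and cdca7b Cocktail 1 is near the control and Cocktail 4 is low, in bzw1a Cocktails 1 to 4 are high, and in zfp36l2 both Cocktail 1 libraries are above the rest.

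Genes of the outer and extraembryonic layers separated the Cocktail 1 libraries, as did the patterning and early zygotic genes described after them. A list is described by its called genes and by its median log2 ratio to the mean of the 14 other cocktail libraries, with levels under 3 counts set to 3 counts. Over all genes tested this median was -0.06 in replicate 1 and -0.06 in replicate 2. In whole embryos, fewer cells of a type and less RNA per cell cannot be told apart. With replicate 2 alone so few of all genes were called that a short list without a call says little.

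Over all genes tested, 0.241% were lower with both libraries than in the other cocktails and 0.165% were higher. Of 21 genes that mark the enveloping layer, an epithelium that covers the embryo, 1 was lower and none was higher. That gene was ppl, the plakin periplakin, with 18.1 and 18.2 CPM in Cocktail 1, 18.1 to 55.8 CPM in the other cocktails and 148 and 156 CPM in the control. Its log2 fold change was -1.07 ± 0.25 (edgeR adjusted p = 0.0466), and it was not called with replicate 2 alone. Its call was kept in 8 of 27 alternatives. With replicate 1 alone 13 of the 21 were lower, where 4.73% of all genes were, and with replicate 2 alone none was, where 0.0689% of all genes were. Their median was -3.61 in replicate 1 and -0.43 in replicate 2, between -1.02 and 0.49 in the other cocktails and 2.21 and 2.11 in the control. Their summed level was 1621 and 3462 CPM in Cocktail 1, 2425 to 5105 CPM in the other cocktails and 10158 and 9480 CPM in the control. In replicate 1, 8 of the 21 were at 0 counts, among them krt4, krt18a.1 and cldne, and in replicate 2, 3 were (krt17, znf750 and anxa1c). Between 1 and 5 were at 0 in the other cocktail libraries and none in the control. Against the control, 13 of the 21 were lower with both libraries, where 7.86% of all genes were. Without replicate 1, their median log2 fold change over the control was -3.07, against 0.04 over all genes tested. The epithelial adhesion gene epcam did not follow the list, with 1420.1 and 1153 CPM in Cocktail 1, 886 to 1574 CPM in the other cocktails and 1711 and 1465 CPM in the control. It made up most of the summed level in replicate 1, so that sum says little of the other members.

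Of 10 genes of the yolk syncytial layer, the multinucleate layer at the yolk surface, gata6 and gata5 were lower and none was higher. These GATA factors of endoderm and heart stand in the mesendoderm list too. Over all genes tested, 0.241% were lower and 0.165% higher. Levels of gata6 were 1.08 and 8.95 CPM in Cocktail 1, 5.59 to 55.1 CPM in the other cocktails and 237 and 203 CPM in the control (log2 fold change -2.33 ± 0.42, edgeR adjusted p = 0.0102). Levels of gata5 were 0.811 and 9.91 CPM in Cocktail 1, 6.19 to 58.6 CPM in the other cocktails and 114 and 101 CPM in the control (-2.20 ± 0.48, adjusted p = 0.0387). With replicate 2 alone neither was called (adjusted p = 0.186 for gata6 and 0.363 for gata5), and the calls were kept in 25 (gata6) and 9 (gata5) of 27 alternatives. With replicate 1 alone 8 of the 10 genes were lower, where 4.73% of all genes were. The list's median was -4.79 in replicate 1 and -0.99 in replicate 2, against -1.38 to 0.80 in the other cocktails and 1.99 and 1.95 in the control. Its summed level was 7.02 CPM in replicate 1 and 565 CPM in replicate 2, 396 to 965 CPM in the other cocktails and 1281 and 1234 CPM in the control. The homeobox gene mxtx2, which specifies this layer, had 1.62 and 468 CPM in Cocktail 1, 251 to 822 CPM in the other cocktails and 231 and 243 CPM in the control. It made up most of the summed level in replicate 2 and lay above the control there, unlike the list's median. The genes fetub and slc26a1 were at 0 in replicate 1 with mxtx1, and fetub was also at 0 in replicate 2. Other cocktail libraries had 0 to 3 of the 10 at 0, and the control had none.

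In the patterning lists too, most calls came with replicate 1 alone. With both libraries, 0.241% of all genes were lower and 0.165% higher. Of 18 mesendoderm and Nodal genes, gata6 and gata5 were lower with both libraries, 13 were lower with replicate 1 alone (4.73% of all genes) and none with replicate 2 alone. The list's median was -4.85 in replicate 1 and -0.65 in replicate 2, against -0.65 to 0.35 in the other cocktails and 0.64 and 0.55 in the control, so replicate 2 was level with the lowest of the other cocktails. The T-box gene tbx16 is described above. The receptor gene aplnrb had 1.62 and 388 CPM in Cocktail 1 and 275 to 481 CPM in the other cocktails, against 302 and 302 CPM in the control. The actin-bundling gene fscn1a had 313 and 515 CPM in Cocktail 1, 404 to 767 CPM in the other cocktails, and 1288 and 1317 CPM in the control, and was not called (edgeR adjusted p = 0.255).

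Of 13 ventral BMP and Wnt genes and 14 dorsal organizer genes, none was called with both libraries or with replicate 2 alone. With replicate 1 alone, 9 and 11 were lower (4.73% of all genes) and none was higher (3.14%). The median of the ventral list was -5.55 in replicate 1 and -0.18 in replicate 2, against -0.54 to 0.33 in the other cocktails and 1.12 and 1.29 in the control. That of the dorsal list was -4.07 and -0.63 in Cocktail 1, against -0.91 to 0.50 in the other cocktails and 1.02 and 1.22 in the control. The ventral repressor gene vox had 3.24 and 171 CPM in Cocktail 1, against 78.0 to 216 CPM in the other cocktails and 352 and 406 CPM in the control. For chrd, which encodes the BMP antagonist chordin, levels were 0 and 18.5 CPM, 17.7 to 101 CPM, and 215 and 201 CPM in the same order.

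Among 27 early zygotic genes, which include tbx16 of the mesendoderm list, none was called with both libraries. With replicate 1 alone 19 were lower (4.73% of all genes) and 1 was higher (3.14%), and with replicate 2 alone none was called. The apolipoprotein gene apoeb had 2.43 and 927 CPM in Cocktail 1, 451 to 1308 CPM in the other cocktails and 2184 and 2242 CPM in the control. The zinc finger gene blf had 4.86 and 640 CPM in Cocktail 1, 409 to 597 CPM in the other cocktails and 855 and 857 CPM in the control. In both, replicate 1 had almost no reads while replicate 2 lay within or above the range of the other cocktails. The list's median was -4.95 in replicate 1 and -0.16 in replicate 2, against -0.62 to 0.30 in the other cocktails and 1.05 and 1.14 in the control.

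**Figure D5:**
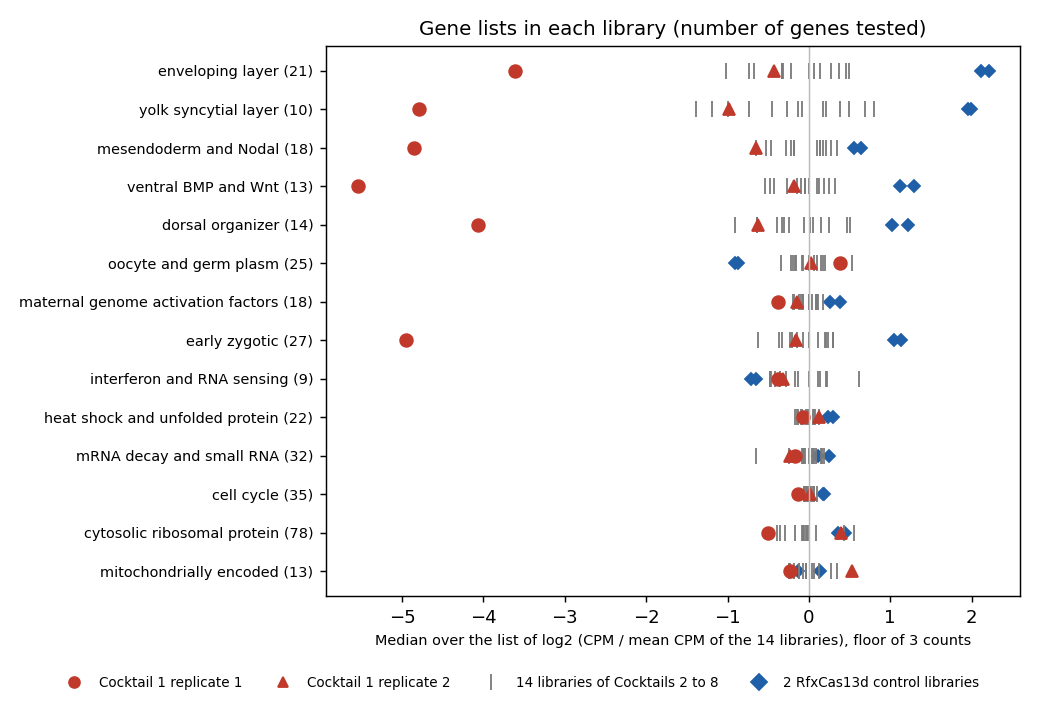
For each list, named on the y axis with the number of genes tested, the x axis gives the median log2 ratio of its genes to their mean in the 14 libraries of Cocktails 2 to 8, by library (red circle, Cocktail 1 replicate 1; red triangle, Cocktail 1 replicate 2; grey ticks, other cocktails; blue diamonds, control). In 6 of the lists drawn, those of the enveloping layer, yolk syncytial layer, mesendoderm, ventral and dorsal genes and early zygotic genes, replicate 1 lies between -5.55 and -3.61, while replicate 2 lies between -0.99 and -0.16. Some genes, such as gata6, gata5 and tbx16, stand in more than 1 of these lists, so the lists are not separate observations.

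Genes of the oocyte and germ plasm moved less. Of 25, h1m and btg4 were higher than in the other cocktails, and none was lower. Over all genes tested, 0.165% were higher and 0.241% lower. Levels of h1m, an embryonic linker histone gene, were 1116 and 967 CPM in Cocktail 1, 191 to 1055 CPM (median 587) in the other cocktails and 471 and 496 CPM in the control (log2 fold change 1.02 ± 0.15, edgeR adjusted p = 0.000972). Both Cocktail 1 libraries were high, and Cocktail 3 replicate 2 was between them. For btg4, an adaptor of maternal mRNA deadenylation, they were 584 and 245 CPM, 117 to 350 CPM, and 47.0 and 43.7 CPM in the same order (1.02 ± 0.20, adjusted p = 0.0159). Neither was called with replicate 2 alone, where h1m missed the 2-fold minimum (0.92) and btg4 was at 0.26. The calls were kept in 23 (h1m) and 15 (btg4) of 27 alternatives.

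Without replicate 2, 6 of the 25 were higher (3.14% of all genes) and none was lower. The list's median was 0.38 in replicate 1 and 0.03 in replicate 2, against -0.34 to 0.53 in the other cocktails and -0.91 and -0.88 in the control. Against the control, 14 of the 25 were higher with both libraries, where 12.6% of all genes were. Without replicate 1, their median log2 fold change over the control was 1.00, against 0.04 over all genes tested. The gene buc, for the organiser of the Balbiani body, had 1280 and 633 CPM in Cocktail 1, 677 to 1302 CPM in the other cocktails and 191 and 171 CPM in the control. The zinc finger gene cth1 had 1830 and 1016 CPM in Cocktail 1, 882 to 1498 CPM in the other cocktails and 481 and 445 CPM in the control. Levels of cldnd were 2493 and 1187 CPM in Cocktail 1, 715 to 1775 CPM in the other cocktails and 376 and 416 CPM in the control. Its log2 fold change over the other cocktails, 0.90 ± 0.19, was under the 2-fold minimum (edgeR adjusted p = 0.0286).

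With both libraries, the remaining lists had 1 called gene, where 0.241% of all genes were lower and 0.165% higher. Of 18 maternal factors of genome activation none was called against the other cocktails, with nanog at 1227 and 2185 CPM in Cocktail 1, 1644 to 2115 CPM in the other cocktails and 1606 and 1537 CPM in the control. Of 32 genes of mRNA decay and small RNA, zfp36l2 alone was called. No gene was called among 22 heat shock and unfolded protein genes, 35 cell cycle genes, 9 interferon and RNA sensing genes, 78 cytosolic ribosomal protein genes, 13 mitochondrially encoded genes or the 4 later tissue and blood markers that could be tested. With replicate 2 alone, where few of all genes were called, the lack of calls in these lists and in the maternal and mRNA decay lists says little. With replicate 1 alone, where 4.73% of all genes were lower and 3.14% higher, 1 maternal factor was lower and 2 were higher, and 1 mRNA decay gene was lower and 2 were higher. In the same fit 3 heat shock genes were lower, 5 cell cycle genes were lower and 1 was higher, and 1 interferon gene, 3 ribosomal genes and 1 later tissue marker were lower. The medians of the ribosomal list were -0.50 in replicate 1 and 0.39 in replicate 2. They were -0.39 to 0.56 in the other cocktails and 0.44 and 0.36 in the control. Those of the mitochondrial list were -0.23 and 0.52, against -0.25 to 0.35 in the other cocktails and -0.13 and 0.13 in the control. In both lists the other cocktail libraries also lay on both sides of their mean. In the interferon list isg15, a ubiquitin-like modifier gene, had 4.05 and 879 CPM in Cocktail 1, 407 to 999 CPM in the other cocktails and 570 and 596 CPM in the control. The small heat shock gene hspb1 had 7.84 and 699 CPM in Cocktail 1, 276 to 964 CPM in the other cocktails and 2220 and 2150 CPM in the control.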

How the data were processed

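Total RNA of whole embryos was extracted with the Direct-zol kit, and libraries were made with Nextera XT at reduced volume, per the labels' protocols. That kit does not mark strand, so reads of a gene and an antisense partner cannot be told apart, and counts of overlapping genes or near-identical copies are uncertain. The authors deposited for each library 1 table of gene read counts, in whole numbers, and 1 of TPM, a unit inferred from the values. The submitters' processing notes list bcl2fastq 2.20 and danRer11. How reads were aligned and counted, with which annotation, is not given in the sources used here. No sequences or coordinates are printed.

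Groups came from the sample titles. The 4 rows that name no gene (22.6% to 55.5% of a table) entered neither library sizes nor tests. TMM-scaled counts were tested with edgeR 4.0.16 (R 4.3.3; robust quasi-likelihood F test, 1 coefficient per group, all 18 libraries, minimum count 10), as Cocktail 1 minus the mean of Cocktails 2 to 8 and minus the control. The script was tested on simulated counts, with the same expected scaled level of each gene in both Cocktail 1 libraries. That test does not cover Cocktail 1 libraries that differ as widely as these, nor the fits with one of them left out. A call took a 2-fold change and an adjusted p (Benjamini-Hochberg) under 0.05. Each SE was worked back from the test, as the absolute log2 fold change divided by the square root of the F statistic. Principal components and differences between libraries use log2 CPM with a prior count of 2. Alternatives were RLE scaling, DESeq2 1.42.0, limma 3.58.1 on log2(TPM + 1) and log2(TPM + 0.1), scales that understate changes of low genes, no filter, no fold minimum, only the groups compared, the other cocktails as 1 group, the replicate number as a block, and each library left out. Cocktails 4 to 8 as the comparison, and lists with either Cocktail 1 library left out, were added after seeing the data.

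Genes named were called, had at least 5 CPM in the higher group and both Cocktail 1 libraries beyond the 14 others, ranked by the weaker library: up to 14 lower genes beyond the control and 4 not, and up to 10 higher genes beyond the control and 2 not. List members named were called ones, then the most abundant, and other members (krt17, znf750, anxa1c, fetub, slc26a1) were named after their values were seen. The members and lists were chosen with earlier results of these data known. For 1 gene list no result is given. Floors of 3 counts cover counting error only.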

Additional observations from a re-analysis of the deposited data

Results flagged for a closer look

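The share of reads in the deposited tables that mapped nowhere, which enters no comparison of genes, was above the control in both Cocktail 1 libraries. It was 22.2% and 24.7% in Cocktail 1, 21.6% to 47.3% in the 14 other cocktail libraries and 10.1% and 10.8% in the control. The mean was 23.4% ± 1.73 (SD, n = 2) in Cocktail 1 and 30.6% ± 7.03 (SD, n = 14) in the other cocktails, a difference of -7.21 percentage points (two-sided exact permutation p = 0.1, where the 120 splits allow no p under 0.00833). The test shuffled single libraries as if each were independent, although both libraries of a cocktail share its gRNAs. It therefore cannot weigh Cocktail 1 against the other cocktails, and no conclusion is drawn from it. Without replicate 1 or replicate 2 of Cocktail 1 the difference was -5.99 and -8.44 points. Its part in the gene results was not tested.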

How the results depend on the processing

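Counts of genes moved widely with the setting. For lower genes, 35 with both libraries, they were 109 with DESeq2, 282 with no filter on low counts, 75 with Cocktails 4 to 8 as the comparison, 23 with only the groups compared, 7 with the other cocktails as 1 group, and 138 and 108 by limma on log2(TPM + 1) and log2(TPM + 0.1). For higher genes, 24, they were 97 with no filter, 56 with Cocktails 4 to 8, 1 with the other cocktails as 1 group, 46 with no fold minimum, and 14 and 5 by limma. For the 16 lower genes beyond all 16 other libraries they were 34, 47, 48, 7, 55 and 54 (DESeq2, no filter, Cocktails 4 to 8, 1 group, and limma on both scales). For the 5 higher ones they were 3 with RLE, 2 with DESeq2, 12 with no filter, 20 with Cocktails 4 to 8, 3 with only the groups compared, 0 with 1 group (where 1 higher gene was called in all) and 0 by limma on log2(TPM + 0.1). In both counts, the setting with Cocktails 4 to 8 left the libraries of Cocktails 2 and 3 out of the range to lie beyond. Against the control, only the groups compared gave 722 lower and 804 higher genes. The cause was not tested.

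With each library left out in turn, the ranges were 10 to 686 lower and 8 to 456 higher genes, 6 to 656 and 1 to 436 for those beyond all 16 libraries, and 760 to 1624 lower and 1013 to 2157 higher genes against the control. Against the other cocktails the ends came from leaving out a Cocktail 1 library, except for the 1, which came from Cocktail 2 replicate 2, Cocktail 4 replicate 1 or Cocktail 5 replicate 2. In these fits, genes had to lie beyond the libraries kept, and without a Cocktail 1 library only its partner had to do so. By that count, leaving out Cocktail 3 replicate 2 gave 38 lower and 19 higher genes. The higher ones were 3 without Cocktail 1 replicate 1 or Cocktail 5 replicate 1, and 2 without Cocktail 4 replicate 2, Cocktail 6 replicate 1 or 2, Cocktail 7 replicate 2, Cocktail 8 replicate 2 or either control.

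The genes drap1 and ppp4r2b kept their calls in all 27 alternatives. Calls of lmnb1, aebp2, papolg, ctdspl2a and ppp4r2a were each kept in 26 of 27. Those of mier1a and alg3 were each kept in 24 and were lost by limma on both scales. With the other cocktails as 1 group, where differences among them count as spread, papolg (adjusted p = 0.311), ctdspl2a (0.311), ppp4r2a (0.495), mier1a (0.433), alg3 (0.41) and rbm25b (0.808) were not called. Over 25 named genes, 525 of 672 values kept the call, 147 did not pass and 0 changed sign. DESeq2 gave no adjusted p for 3 of them.

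Same-numbered replicates deviated together with correlations of -0.124 to 0.125 and 1 of 36 pairs of groups over 0.1, so the number was not taken to pair them. With it as a block there were 33 lower and 16 higher genes, and 16 and 2 beyond all 16 libraries. Depth limits genes of few counts such as kcnk9, stard13b and bcar3, and 2 libraries limit every Cocktail 1 value.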

Other observations

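In replicate 2 alone, 6 genes were called that were not called with both Cocktail 1 libraries, named after their values were seen. The gene sc:d217 is given above, and peli2, which encodes a ubiquitin ligase of Toll-like receptor signalling, had 40.3 and 17.3 CPM in Cocktail 1, 13.5 to 115 CPM in the other cocktails and 66.3 and 70.2 CPM in the control (log2 fold change in replicate 2 -1.67 ± 0.33, edgeR adjusted p = 0.0285). The genes cstf2, tspan31, calm2a and ctdspl3 were higher than the mean of the other cocktails. Levels of cstf2, a gene of an mRNA 3' end cleavage factor, were 165 and 264 CPM in Cocktail 1, 7.08 to 287 CPM (median 202) in the other cocktails and 295 and 289 CPM in the control. Both Cocktail 1 libraries thus lay below the control in cstf2 and inside the range of the other cocktails. Levels of calm2a, a calmodulin gene, were 147 and 271 CPM in Cocktail 1, 54.5 to 225 CPM in the other cocktails, and 98.1 and 107 CPM in the control. Levels of ctdspl3, a gene of a small phosphatase, were 181 and 234 CPM in Cocktail 1, 38.0 and 42.1 CPM in Cocktail 4, 23.3 and 15.9 CPM in Cocktail 5 and 149 and 153 CPM in the control. For tspan31, a tetraspanin gene, they were 115 and 158 CPM in Cocktail 1, 23.2 to 51.0 CPM in Cocktails 4 to 6 and 144 and 112 CPM in the control. Both were thus low in other cocktails, with Cocktail 1 within 2-fold of the control.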
